A study of Homo sapiens with 32 samples.

Results

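The 8 genes described here are markers of gastric epithelium, namely CLDN18, ANXA10, VSIG1, CTSE, GKN1, GKN2, MUC5AC and MUC6. They were chosen by name among 20033 protein-coding genes for their role, with earlier results of these data known. HNF4α binding around them was read from 18 lists of ChIP-seq peaks, 1 list per library, in 3 human pancreatic ductal adenocarcinoma cell lines. A peak was taken when its summit lay within 50 kb of the annotated span of a member gene, and 102 of the 337294 peaks in all lists met this rule. Overlapping peaks from different lists were merged, which gave 28 separate sites near the 8 genes among 78729 merged regions in all.

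HNF4α is a nuclear receptor that binds DNA as a homodimer and is expressed in liver, gut and endocrine and exocrine pancreas. It is transcribed from a P1 and a P2 promoter, which give isoforms with different N-termini and the same DNA-binding domain. The member genes belong to the surface and gland cells of the stomach. Many of them are switched on in the gastric-like metaplasia and early neoplasia of the pancreatic duct, and in the classical form of pancreatic cancer.

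The libraries fell into 9 groups of 2. Panc10.05 cells carried doxycycline-inducible P1-α2 (25 ng/mL doxycycline) or P2-α8 (12.5 ng/mL), so dose and isoform differ together in that line. BxPC3 cells carried inducible P1-α2 or P2-α8, both at 500 ng/mL. AsPC1 cells (ASPC1 in the labels) carried CRISPR interference, which represses a promoter through a guide RNA, with a control guide (sgNC), a P1 guide (sgP1) or a P2 guide (sgP2). All of these were precipitated with an antibody to every HNF4α isoform (pan antibody, PP-H1415). For sgNC and sgP2 a further pair of libraries each came from an antibody to P1 isoforms alone (P1 antibody, PP-K9218). Uninduced cells were not among the samples analysed here, all samples were cultured lines, and nothing in the labels says that the 2 libraries of a group came from separately derived clones or cultures beyond being collected per replicate. The lists hold no expression, so the level of HNF4A or the effect of a guide was not checked. The titles of the BxPC3 P2-α8 libraries name P1 with α8, and the genotype label was followed. Each line carries its own library-name series, so line and library-name series cannot be told apart.

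The lists held 24828 to 39111 peaks in Panc10.05, 33737 and 41808 in BxPC3 P1-α2, and 12681 and 14666 in BxPC3 P2-α8. AsPC1 lists held 11686 to 24295 peaks with the pan antibody, 697 and 260 with the P1 antibody in sgNC, and 5200 and 3916 in sgP2. The lists start just above a −log10 q of 8 in Panc10.05 and BxPC3 and of 2 in AsPC1. Because the read depth is unknown, the strength of a peak is given as its rank within its own list, a percentile by fold enrichment over background on which 100 is the strongest, and as that fold, which is the authors' value. A peak not called is not evidence of no binding, and shorter lists hold fewer peaks near any gene.

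No HNF4α peak was called over a promoter of the 5 members that had a promoter entry. VSIG1, MUC5AC and MUC6 had no entry, so peaks over their promoters were not looked for. The RefSeq table (GRCh38.p14) held 6 promoter entries for 5 members, CTSE, GKN1, GKN2, ANXA10 and a pair for CLDN18, and 0 of 18 lists had a peak over any of them. The 250 bases before the start are printed for CTSE, the member with peaks in the most lists, and for GKN1, whose one recurrent site was near its start and in a single group. Each is written 5′ to 3′ on the gene's own strand. Capitals mark the 5 letters CAAAG, or CTTTG on the other strand, which begin the HNF4 motifs searched.
CTSE promoter: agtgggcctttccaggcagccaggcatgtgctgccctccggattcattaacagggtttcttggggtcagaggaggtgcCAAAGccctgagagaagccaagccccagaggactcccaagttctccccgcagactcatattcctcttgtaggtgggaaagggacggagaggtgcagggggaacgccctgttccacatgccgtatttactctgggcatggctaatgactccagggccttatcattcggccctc
GKN1 promoter: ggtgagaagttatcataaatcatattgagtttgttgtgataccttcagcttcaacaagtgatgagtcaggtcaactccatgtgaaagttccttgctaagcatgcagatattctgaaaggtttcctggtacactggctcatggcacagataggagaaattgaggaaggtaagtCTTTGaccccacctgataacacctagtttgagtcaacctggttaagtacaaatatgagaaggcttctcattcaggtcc
The full HNF4 motifs searched on both strands, with no allowance for mismatches, were CAAAGTCCA, CAAAGTTCA, CAAAGGTCA and CAAAGGCCA. They occurred in 0.384%, 0.296%, 0.407% and 0.461% of 35116 promoter windows running from 250 bases before to 50 bases after a start. None of the 4 was present in the 6 windows of member genes. The 5 letters alone, a match too short to be specific, were in 42.1% of all stretches of 250 bases before a start and in 3 of 6 for member genes. The nearest edge of any HNF4α site lay 1.34 kb from the CTSE start and 2.16 kb from the GKN1 start. It lay 17.1 kb from the GKN2 start, 27.33 kb and 38.68 kb from the CLDN18 starts and 31.86 kb from the ANXA10 start. The sites nearest to the CTSE, GKN2 and ANXA10 starts were each called in 1 list, at percentiles of 15.6, 13.6 and 13.6.

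Many of the 28 sites were nearer to, or inside, another gene. Of the 28, 6 were inside a member gene, 10 were inside another protein-coding gene and 12 were in none. The nearest protein-coding gene was a member for 14. Only 15 sites were called in both libraries of at least 1 group, and 10 were called in a single list. The 102 peaks had a median percentile of 51.6, with 50 below the 50th percentile and 22 above the 90th. Peaks above the 90th percentile came from 4 sites: a site inside CTSE, a site upstream of CTSE, a site beside MUC6 within AP2A2, and a site beside MUC5AC. The plot of ranks by site and list shows these as the bright rows.

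**Figure D1:**
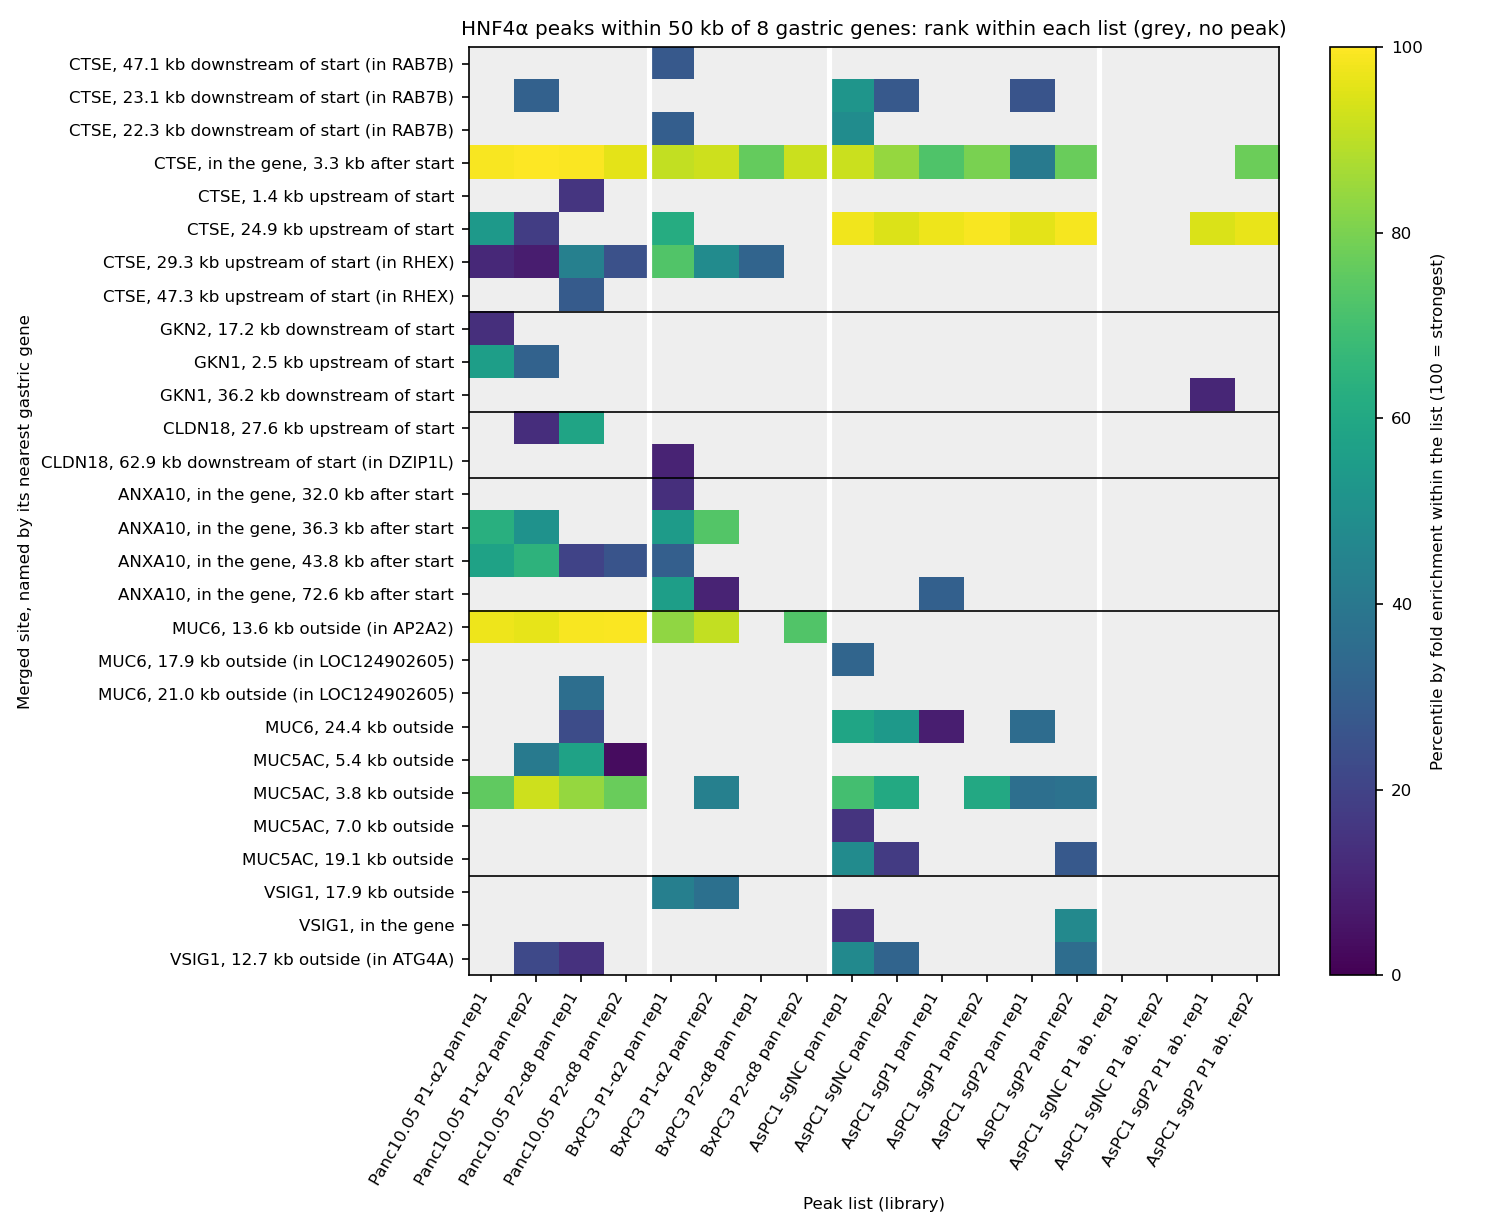
Percentile by fold enrichment within each peak list (colour; grey, no peak called) for the 28 merged sites within 50 kb of 8 gastric genes (rows) in the 18 lists (columns, 2 libraries per group; white lines separate Panc10.05, BxPC3, AsPC1 with the pan antibody and AsPC1 with the P1 antibody). The site inside CTSE was called in 15 lists, the site 24.91 kb upstream of CTSE reached 94.8 to 99.1 in AsPC1 with the pan antibody, and most other sites were below the 60th percentile.

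CTSE encodes cathepsin E, an aspartic protease of gastric surface cells, and it was the member with peaks in the most lists. A peak lay within 50 kb of CTSE in 16 of 18 lists, the exceptions being both sgNC libraries with the P1 antibody. Such peaks were common: 45.4% to 79.5% of all genes had one in both libraries of a pan-antibody group. With the P1 antibody these shares were 23.7% in sgP2 and 2.31% in sgNC. The share of all genes with peaks in as many lists was not computed. CTSE had 42 of the 102 peaks, at 8 sites. Its strongest site in the induced lines was inside the gene, 3.28 kb downstream of the start (chromosome 1, 206020208 to 206021765, hg38). That site was called in all 14 pan-antibody lists. Among all merged regions 2.95% were called in all 14, and 1 of the 28 sites near gastric genes was.

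At the site inside CTSE, Panc10.05 reached the 99.0 and 99.8 percentiles with P1-α2 and 99.3 and 95.9 with P2-α8. The fold enrichment there was 63.6 and 115 with P1-α2 and 49.1 and 30 with P2-α8. BxPC3 stood at percentiles of 91.0 and 92.3 with P1-α2 and 76.5 and 91.9 with P2-α8. The BxPC3 folds were 23.2 and 20 with P1-α2 and 13 and 14.3 with P2-α8. All 4 Panc10.05 lists thus ranked the site higher than all 4 BxPC3 lists, and within either line the percentiles of the isoforms overlapped. The folds did not overlap, being higher with P1-α2 in either line. The median fold over all peaks was also higher in the P1-α2 lists of either line. In AsPC1 the percentiles were 91.9 and 84.1 in sgNC, 72.3 and 79.8 in sgP1, and 40.8 and 77.3 in sgP2. Both sgNC values were above those of the other guides, and the sgP2 libraries were far apart. With the P1 antibody the site was called in 1 of 2 sgP2 libraries, at percentile 77.4, and in neither sgNC library.

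The second main CTSE site ranked highest in AsPC1. It lay 24.91 kb upstream of the CTSE start (chromosome 1, 206048407 to 206049177) in no gene, and its nearest gene was RHEX, an erythroid growth regulator. All 6 AsPC1 pan-antibody lists held it among their strongest peaks, at percentiles of 97.7 and 94.8 in sgNC, 97.6 and 99.1 in sgP1 and 95.9 and 98.7 in sgP2. The 3 guides overlapped, and the folds were 21.1 to 37.4. The P1 antibody found it in both sgP2 libraries, at percentiles 94.4 and 96.7 and folds of 18.3 and 21.4, and in neither sgNC library. In Panc10.05 P1-α2 the percentiles were only 53.7 and 18.2, and in BxPC3 P1-α2 1 of 2 libraries held it, at 61.8. The folds in these 3 lists were 9.7 to 14.1. None of the 4 P2-α8 lists held it. Because AsPC1 lists reach weaker peaks, which raises the ranks of the others, the site was also ranked among peaks of −log10 q 8 or more only, where AsPC1 still stood at 92.6 to 98.7. On that common limit the site inside CTSE stood at 20.0 to 88.4 in the 6 AsPC1 pan-antibody lists. At 29.33 kb upstream, inside RHEX, another site showed the reverse: it was called in 7 of 8 induced lists, at percentiles of 8.15 to 72.9, and in no AsPC1 list. The map of summits around CTSE shows the site inside the gene in line across the lines, and the upstream pair dividing them.

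**Figure D2:**
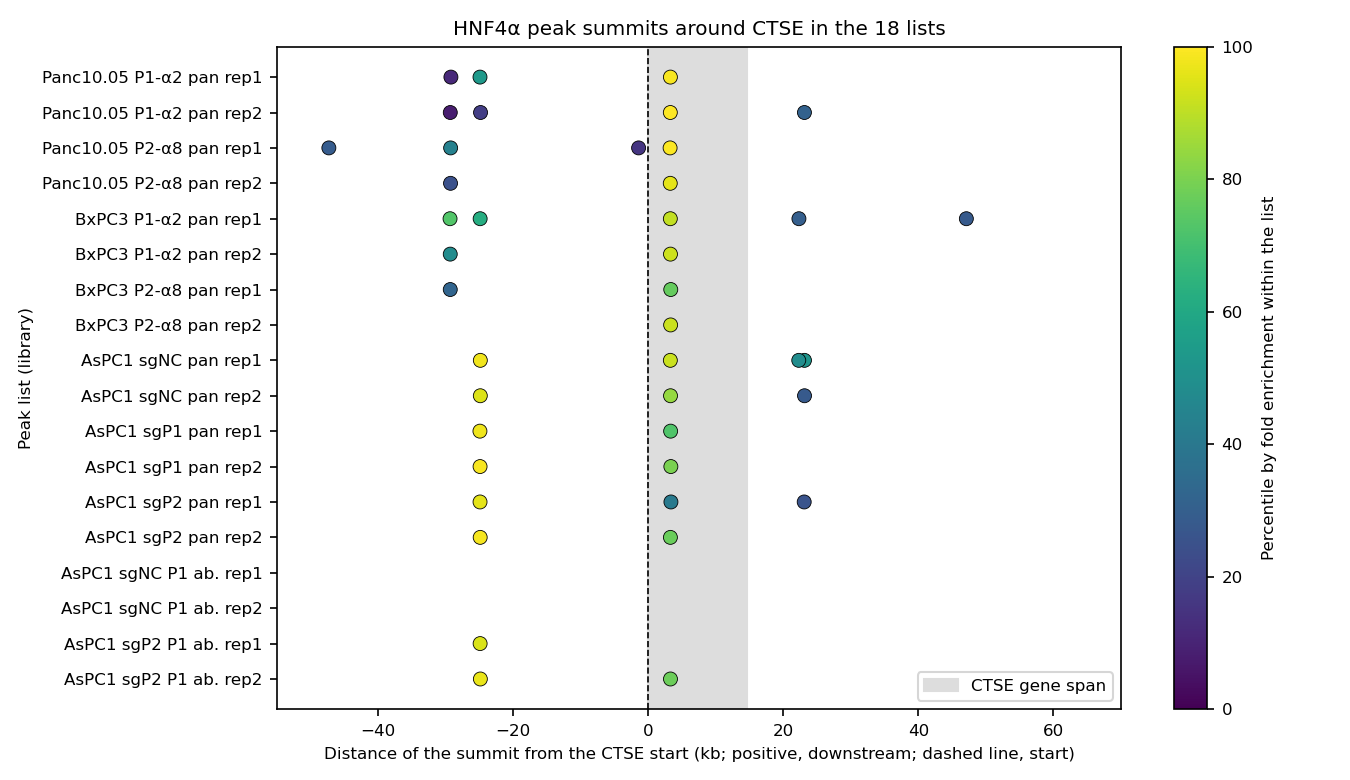
Distance of each HNF4α peak summit from the CTSE start in kb (horizontal; the dashed line is the start, grey is the gene, positive values are downstream) for each of the 18 lists (vertical), coloured by percentile within the list. The column 3.28 kb into the gene is present in 15 lists, the column at 24.91 kb upstream is brightest in AsPC1, and the column at 29.33 kb upstream is present in induced lines and in no AsPC1 list.

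The other CTSE sites were weaker. A site 23.12 kb downstream of the start, inside RAB7B, a small GTPase gene, was called in both sgNC libraries (percentiles 52.2 and 28.1), in 1 sgP2 library (26.1) and in 1 Panc10.05 P1-α2 library (30.9). Among peaks of −log10 q 8 or more only, it stood at 31.7 and 5.61 in sgNC, and the sgP2 peak dropped out. A site 22.29 kb downstream was called in 2 lists, and sites 47.1 kb downstream, 1.44 kb upstream and 47.32 kb upstream were each called in 1 list. The last of these was the peak nearest to the 50 kb limit from inside, at percentile 28.8.

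MUC5AC and MUC6 encode gel-forming mucins, of gastric surface cells and of gastric gland cells, and lie in 1 mucin cluster on chromosome 11, so they were counted as 1 neighbourhood. It held 31 peaks at 8 sites, in 13 of 18 lists. The strongest was inside AP2A2, which encodes a subunit of the clathrin adaptor, 13.59 kb outside MUC6 (chromosome 11, 998731 to 999665). The Panc10.05 percentiles there were 97.6 and 96.3 with P1-α2 and 99.2 and 99.5 with P2-α8. BxPC3 gave 83.4 and 90.9 with P1-α2, and 72.9 in 1 of 2 libraries with P2-α8. No AsPC1 list held a peak there with either antibody. The site was thus high in both isoforms of Panc10.05, lower in BxPC3 and not called in AsPC1.

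Beside MUC5AC, the site called in the most lists lay 3.83 kb outside the gene (chromosome 11, 1153674 to 1154565). It was called in 10 lists. Panc10.05 stood at percentiles of 75.7 and 92.3 with P1-α2 and 84.2 and 77.3 with P2-α8. The single BxPC3 list with a peak there was 1 of P1-α2, at 43.7. In AsPC1 the site was at 70.0 and 60.8 in sgNC, at 60.2 in 1 of 2 sgP1 libraries, and at 36.5 and 37.8 in sgP2. Both sgNC libraries were above both sgP2 libraries. Among peaks of −log10 q 8 or more only, the 5 AsPC1 lists stood at 14.2 to 57.1, below all 4 Panc10.05 lists. A second site 5.38 kb outside MUC5AC was called in Panc10.05 alone, in 3 of 4 lists, at percentiles of 3.47 to 57.7. Between the mucin genes, a site 24.37 kb outside MUC6 was called in both sgNC libraries (58.8 and 53.8), in 1 sgP1 and 1 sgP2 library (8.42 and 35.2) and in 1 Panc10.05 P2-α8 library (23.3). Among peaks of −log10 q 8 or more only, it stood at 41.0 and 34.2 in sgNC and 12.5 in sgP2, and the sgP1 peak dropped out. On the far side of MUC5AC, 19.05 kb outside it and nearest to MUC5B, a site was called in both sgNC libraries (48.2 and 17.4) and in 1 sgP2 library (27.9). Among peaks of −log10 q 8 or more only, 1 sgNC library kept this site, at 26.0.

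ANXA10 encodes an annexin, a calcium-dependent membrane-binding protein of gastric epithelium. All 4 of its sites, holding 13 peaks, were inside the gene. A site 36.28 kb downstream of the start (chromosome 4, 168128564 to 168129038) was called in all 4 P1-α2 lists and in none of the 4 P2-α8 lists or the AsPC1 lists. The Panc10.05 P1-α2 libraries placed it at percentiles 63.1 and 51.0 (folds 16.1 and 14.8), and the BxPC3 P1-α2 libraries at 54.8 and 73.4 (folds 12.1 and 13.3). A second site, 43.79 kb downstream, was called with both isoforms in Panc10.05, at 57.5 and 64.8 with P1-α2 and at 20.2 and 25.8 with P2-α8. Its P1-α2 percentiles were both above the P2-α8 percentiles. BxPC3 held this second site in 1 P1-α2 library alone, at 30.1. Another, 72.6 kb downstream, was called in both BxPC3 P1-α2 libraries (56.2 and 9.83) and in 1 AsPC1 sgP1 library (30.8). The sgP1 peak did not reach a −log10 q of 8.

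GKN1 and GKN2 encode gastrokines, proteins secreted by gastric surface cells, and share a neighbourhood on chromosome 2. It held 4 peaks in 3 lists. The only site called in both libraries of a group lay 2.46 kb upstream of the GKN1 start (chromosome 2, 68971973 to 68972473), outside the promoter stretch printed above. It was called in both Panc10.05 P1-α2 libraries, at percentiles 55.9 and 31.5 and folds of 14.5 and 11.5, and in no other list. The other peaks near the gastrokines were 1 in a Panc10.05 P1-α2 library (percentile 13.6) and 1 in an sgP2 library with the P1 antibody (10.9).

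VSIG1 encodes an adhesion protein of the immunoglobulin superfamily found in stomach, on chromosome X. It had 9 peaks at 3 sites in 7 lists, none above the 50th percentile. A site 17.85 kb outside the gene was called in both BxPC3 P1-α2 libraries (43.0 and 37.0) and in no other list. A site inside VSIG1 was called in 1 sgNC and 1 sgP2 library (14.4 and 47.0). A site 12.74 kb outside, inside the autophagy protease gene ATG4A, was called in both sgNC libraries (47.6 and 32.4), in 1 sgP2 library (35.7) and in 1 library of either Panc10.05 isoform (21.9 and 14.4). Among peaks of −log10 q 8 or more only, 1 AsPC1 list kept this site, an sgNC library at 25.1.

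CLDN18 encodes claudin-18, a tight junction protein with a stomach isoform, and it was, with GKN2, the member with the fewest peaks. It had 3 peaks at 2 sites, all in induced lines, and no site was called in both libraries of a group. The site 27.62 kb upstream was called in 1 P1-α2 and 1 P2-α8 library of Panc10.05 (percentiles 13.1 and 58.3), and the other in 1 BxPC3 P1-α2 library (10.0). This count depends on the 50 kb limit. In 6 of the 8 induced lists a peak lay 55.59 to 55.67 kb from CLDN18, just outside it: both BxPC3 P1-α2 libraries (91.3 and 78.9), both BxPC3 P2-α8 libraries (58.8 and 30.6) and 1 Panc10.05 library of either isoform (47.5 and 20.0). Near MUC6, both Panc10.05 P2-α8 libraries held a peak 56.94 and 56.97 kb away (91.7 and 72.9).

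Peak numbers near the 8 genes were compared next. The windows held 9 and 12 peaks in the Panc10.05 P1-α2 libraries and 12 and 6 in the P2-α8 libraries. They held 12 and 7 in BxPC3 P1-α2 and 2 and 2 in BxPC3 P2-α8. In AsPC1 with the pan antibody they held 11 and 7 in sgNC, 4 and 3 in sgP1, and 5 and 6 in sgP2. With the P1 antibody they held 0 and 0 in sgNC and 2 and 2 in sgP2. In BxPC3 and in AsPC1 with either antibody, the groups with the shorter lists had the lower totals, while in Panc10.05 they did not. Each comparison was therefore repeated with its lists at equal length. The plot of peak numbers shows each neighbourhood apart.

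**Figure D3:**
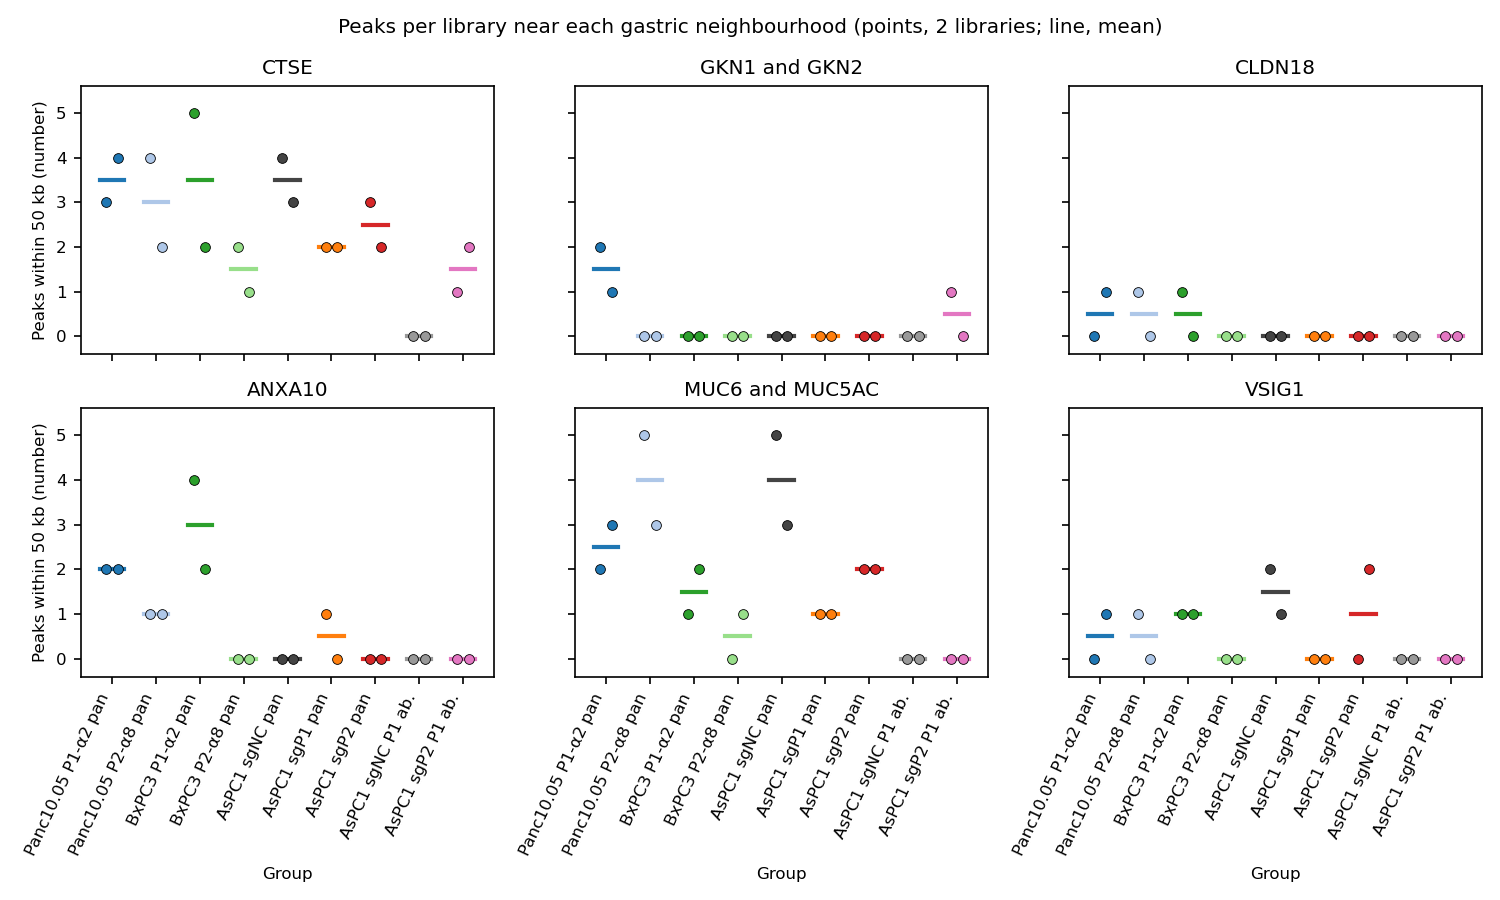
Number of HNF4α peaks within 50 kb of each of 6 gastric gene neighbourhoods (panels; GKN1 with GKN2 and MUC6 with MUC5AC share windows) in each of 9 groups; points are the 2 libraries and the line is their mean. CTSE had peaks in every group except sgNC with the P1 antibody, and ANXA10 had 2 to 4 peaks in P1-α2 libraries against 0 or 1 in P2-α8 libraries.

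As a group, the gastric genes did not stand above genes at large in having a peak nearby. In Panc10.05 P1-α2, 6 of 8 members had a peak in both libraries (CTSE, GKN1, GKN2, ANXA10, MUC5AC and MUC6), against 74.5% of all genes. In Panc10.05 P2-α8, 4 of 8 did (CTSE, ANXA10, MUC5AC and MUC6), against 79.5%. In BxPC3 P1-α2 the count was 4 (CTSE, ANXA10, VSIG1 and MUC6), against 76.6%, and in BxPC3 P2-α8 it was 1 (CTSE), against 45.4%. In AsPC1 with the pan antibody, 4 members passed in sgNC (CTSE, VSIG1, MUC5AC and MUC6) against 58.5% of genes, 1 in sgP1 (CTSE) against 50.6%, and 2 in sgP2 (CTSE and MUC5AC) against 52.0%. With the P1 antibody, 0 passed in sgNC against 2.31%, and 1 in sgP2 (CTSE) against 23.7%. At a −log10 q of 8, a limit common to the lines, sgNC fell to 3 members against 49.8%. There sgP1 stayed at 1 against 42.1% and sgP2 at 2 against 44.9%. A common limit does not adjust for read depth, which is unknown. The members' share was near the background in Panc10.05 P1-α2, in sgNC with either antibody and in sgP2 with the P1 antibody. It was below the background in the other groups. These differences were not tested and rest on only 8 genes, 4 of which share windows in pairs.

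**Figure D4:**
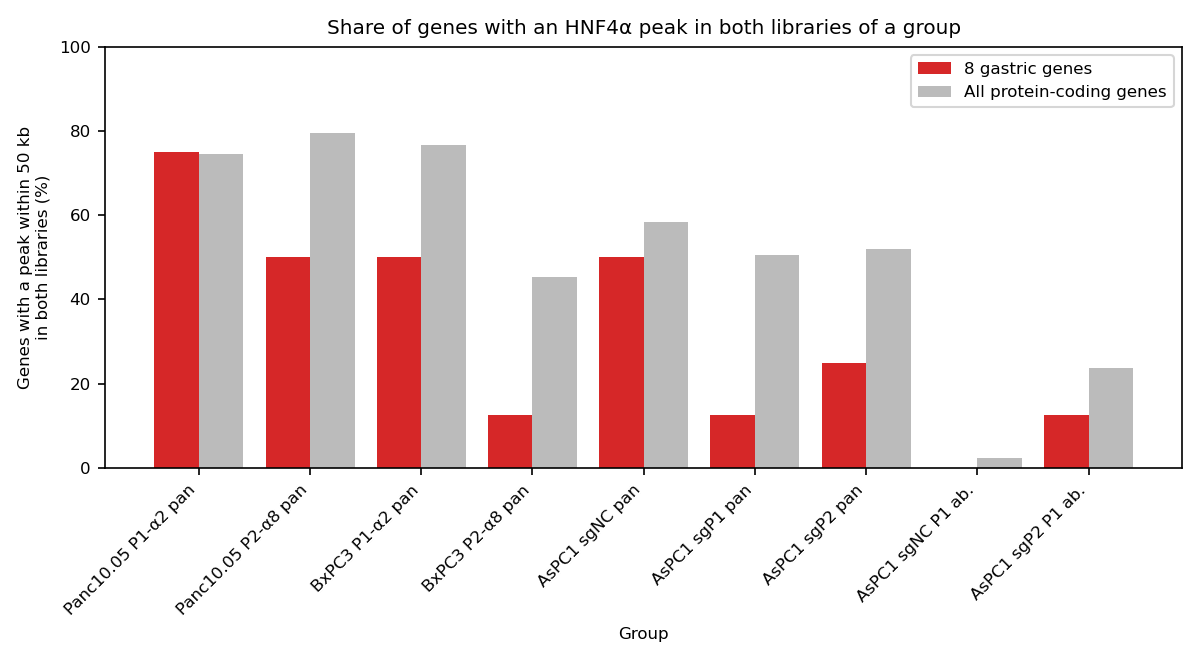
Percentage of the 8 gastric genes (red) and of all 20033 protein-coding genes (grey) with an HNF4α peak within 50 kb in both libraries of each of the 9 groups. The gastric share equals 6 of 8 beside 74.5% in Panc10.05 P1-α2 and is below the grey bar in the other groups.

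Other gene lists gave a setting for these counts. Of 20 further gastric genes, such as the pepsinogen gene PGC and the lipase gene LIPF, 14 and 15 had a peak in both libraries in Panc10.05 P1-α2 and P2-α8, and 13 and 7 in BxPC3. In AsPC1 they numbered 11 in sgNC, 9 in sgP1 and 10 in sgP2 with the pan antibody, and 0 in sgNC and 5 in sgP2 with the P1 antibody. Of 18 intestinal genes, such as the transcription factor gene CDX2 and the villin gene VIL1, 13 and 15 had one in Panc10.05 and 13 and 9 in BxPC3. In AsPC1 the intestinal count was 14 in sgNC and 13 with either other guide, and with the P1 antibody 0 in sgNC and 9 in sgP2. MUC2, in the intestinal list, shares part of its window with MUC6 and MUC5AC. Of all protein-coding genes, 74.5% and 79.5% had a peak in both libraries in Panc10.05 P1-α2 and P2-α8, and 76.6% and 45.4% in BxPC3. In AsPC1 these shares were 58.5% in sgNC, 50.6% in sgP1 and 52.0% in sgP2. With the P1 antibody they were 2.31% in sgNC and 23.7% in sgP2. All peaks were used here, so the AsPC1 counts rest on a looser limit than those of the induced lines.

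Between the isoforms in Panc10.05, sites found in both libraries of 1 isoform and neither of the other were all in the P1-α2 direction. They were 3 of the 17 regions near gastric genes, against 3.64% of all regions in these 4 lists: the CTSE site 24.91 kb upstream, the GKN1 site 2.46 kb upstream and the ANXA10 site 36.28 kb downstream. In the P2-α8 direction there were 0 of 17, against 10.9% of all regions. At equal list length the P1-α2 count was also 3. Leaving out P2-α8 replicate 2 raised that 0 for P2-α8 to 4, and leaving out P1-α2 replicate 2 raised it to 1. For 3 of 8 genes, GKN1, GKN2 and ANXA10, both P1-α2 libraries had more peaks than either P2-α8 library, which held for 3.46% of all genes, and the gastrokines share their peaks. ANXA10 had 2 ± 0 peaks with P1-α2 and 1 ± 0 with P2-α8 (SD, n = 2 each), with an exact two-sided permutation p of 0.333, the smallest that 2 libraries against 2 can give. The adjusted p over all 20033 genes was 1, by exact permutation with Benjamini-Hochberg adjustment. The ANXA10 difference was 2 peaks at equal list length.

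In BxPC3 the same comparison gave 3 of 13 regions specific to P1-α2, against 28.2% of all regions, and 0 specific to P2-α8, against 0.129%. The 3 were the ANXA10 sites 36.28 kb and 72.6 kb downstream and the VSIG1 site 17.85 kb outside that gene. The share near gastric genes was thus close to that of all regions, and with all 4 lists at equal length the count fell to 0. It rose to 9 without P1-α2 replicate 2, and fell to 1 with only peaks of −log10 q 20 or more. ANXA10 (4 and 2 against 0 and 0 peaks) and VSIG1 (1 and 1 against 0 and 0), 2 of 8 genes, had non-overlapping numbers, as did 58.0% of all genes. ANXA10 had 3 ± 1.41 peaks with P1-α2 against 0 ± 0 (SD, n = 2), with an exact permutation p of 0.333 and an adjusted p of 0.575. At equal list length the difference fell from 3 to 0.5 peaks for ANXA10, from 1 to 0 for VSIG1 and from 2 to 0 for CTSE.

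With both induced lines pooled, a comparison chosen after seeing the data, the ANXA10 site 36.28 kb downstream was the 1 of 23 regions called in all 4 P1-α2 lists and no P2-α8 list. Of all regions 0.530% were so called. In the opposite direction there were 0 of 23, against 0.00291% of all regions. ANXA10 was also the 1 of 8 genes with more peaks in every P1-α2 list (2, 2, 4 and 2) than in any P2-α8 list (1, 1, 0 and 0), which held for 1.10% of all genes. The difference of 2 peaks (2.5 ± 1 against 0.5 ± 0.577, SD, n = 4) had an exact permutation p of 0.0556 with labels permuted within line, the smallest possible there, and an adjusted p of 1. This difference was 1 peak at equal list length. The count of such regions near gastric genes was 0 at equal list length and 2 without BxPC3 P1-α2 replicate 2.

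Between the induced lines, no region near gastric genes was called in all 4 lists of one line and none of the other. The counts were 0 of 23 for Panc10.05, against 5.55% of all regions, and 0 of 23 for BxPC3, against 2.09%. Leaving out 1 library (Panc10.05 P1-α2 replicate 1, or either BxPC3 P1-α2 replicate) gave 1 for Panc10.05. MUC5AC had 1, 2, 2 and 2 peaks in Panc10.05 and 0, 1, 0 and 0 in BxPC3. The means were 1.75 ± 0.5 and 0.25 ± 0.5 (SD, n = 4 each), with an exact permutation p of 0.111 within isoform and an adjusted p of 0.467. For the mucin neighbourhood the difference went from 2.25 to 1.25 peaks at equal list length.

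Guides in AsPC1 were compared with the pan antibody, sgP1 and sgP2 sharing the sgNC libraries. Against sgP1, 3 of 12 regions were called in both sgNC libraries and in neither sgP1 library, compared with 8.97% of all regions, and 0 of 12 in the other direction, compared with 0.409%. The 3 were the CTSE site 23.12 kb downstream inside RAB7B, the site 19.05 kb outside MUC5AC and the VSIG1 site inside ATG4A. The MUC5AC and VSIG1 sites each reached a −log10 q of 8 in 1 sgNC library only. All 3 were of middle or low rank, and the count fell to 0 with only peaks of −log10 q 20 or more and to 1 within 10 kb, and rose to 7 without sgNC replicate 2. The 0 for sgP1 became 1 without sgP1 replicate 2. Peak numbers were lower in both sgP1 libraries than in either sgNC library at 3 of 8 genes, compared with 16.2% of all genes. CTSE had 2 and 2 peaks in sgP1 against 4 and 3, MUC5AC 0 and 1 against 3 and 2, and VSIG1 0 and 0 against 2 and 1. Each had an exact permutation p of 0.333, the smallest possible, and an adjusted p of 1. The sgP1 lists (14038 and 11686 peaks) were also shorter than the sgNC lists (24295 and 15118). At equal list length the difference went from −1.5 to −1 peak for CTSE, from −1.5 to −0.5 for VSIG1 and from −3 to −1.5 for the mucin neighbourhood.

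Against sgP2, 0 of 11 regions were specific to sgNC, compared with 7.20% of all regions, and 0 of 11 to sgP2, compared with 0.407%. Without sgNC replicate 2 the sgNC count was 3, and without either sgP2 replicate it was 2. MUC6 and MUC5AC together had 5 and 3 peaks in sgNC, 2 and 2 in sgP2 and 1 and 1 in sgP1, a difference of −2 for sgP2 with an exact permutation p of 0.333. That difference was 0 at equal list length and −0.5 within 10 kb. Set directly beside each other, sgP1 and sgP2 had 0 of 9 specific regions in either direction, compared with 2.75% of all regions for sgP1 and 4.32% for sgP2. Without sgP2 replicate 1 the sgP2 count was 3, and without sgP1 replicate 2 both counts were 1, as was the sgP2 count without sgP2 replicate 2.

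With the P1 antibody, 1 of 3 regions was called in both sgP2 libraries and in neither sgNC library, compared with 36.0% of all regions: the CTSE site 24.91 kb upstream. The count in the sgNC direction was 0 of 3, compared with 0.0638%. CTSE was the 1 of 8 genes with more P1-antibody peaks in both sgP2 libraries (1 and 2) than in either sgNC library (0 and 0), which held for 20.1% of all genes, with an exact permutation p of 0.333 and an adjusted p of 1. With lists of equal length the CTSE difference went from 1.5 to 0.5 peaks. The count of regions was 0 at equal list length and 2 without either sgP2 replicate. The sgNC lists were far shorter than the sgP2 lists with this antibody.

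Comparing the antibodies in sgP2 cells, 0 of 9 regions were found in both P1-antibody lists alone, compared with 0.0562% of all regions. The site 3.83 kb outside MUC5AC was the 1 of 9 found in both pan-antibody lists and neither P1-antibody list, compared with 29.2% of all regions. That 1 became 0 with only peaks of −log10 q 20 or more and at equal length, 4 and 3 without pan-antibody replicate 1 or 2, and 2 without P1-antibody replicate 2, whose absence also turned the 0 for the P1 antibody into 1. Of the P1-antibody peaks near gastric genes, 1 of 2 and 2 of 2 overlapped a pan-antibody peak of sgP2, compared with 88.1% and 96.1% of all peaks in those lists.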

How the data were processed

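The data were the deposited peak lists of 18 immunoprecipitated libraries out of 32 in the series; the 14 input libraries were not analysed here. Reads were aligned and peaks called by the authors with tools that include Bowtie2 2.2.9 and MACS2 2.2.7, per the submitters' processing notes, which name the builds hg38 and mm10 without a role. In the deposited lists, the fold enrichment is a linear ratio, p and q are given as −log10 values, an integer score was deposited too and not used, and the summit is an offset from the start. There is 1 list per library, so the authors called peaks per sample. Read depth is not given in the sources used here. That the coordinates are GRCh38 was checked: in 18 of 18 lists more summits lay near gene ends (5.33% to 18.8%) than after a shift of 100 kb (3.46% to 4.88%).

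Summits were counted within 50 kb of RefSeq gene spans (GRCh38.p14), and peaks overlapping by at least 1 bp were merged, with Python 3.11.15, pandas 2.3.3 and numpy 2.4.6. Peak numbers were compared for every one of 20033 protein-coding genes by two-sided exact permutation with Benjamini-Hochberg adjustment, in 8 comparisons. Where nothing says that libraries are separate cultures, p-values measure only the spread between these libraries, which may be technical. A region specific to a group was in every list of that group and in none of the other; this has no test. On simulated lists, merging and overlaps were checked with bedtools 2.31.1, and 0 of 3282 regions differed. The member genes, gene lists, motifs and comparisons were chosen with earlier results of these data known. Named sites were the site in the most lists of each neighbourhood and every group-specific region. Other sites were named after their values were seen, as were the comparison of isoforms over both lines, the ranks among peaks of −log10 q 8 or more, and the motif of 5 letters. Alternatives were a −log10 q of at least 20, a 10 kb window, lists of equal length by fold, reciprocal overlap of 50%, leaving out each replicate, and a replicate block. Same-numbered libraries did not deviate together: the correlations of their deviations in presence over regions were −0.0674 to 0.068.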

Additional observations from a re-analysis of the deposited data

How the results depend on the processing

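No comparison of peak numbers passed a threshold of 0.05, and none could. The smallest possible exact permutation p was 0.333 with 2 libraries against 2. With 4 against 4, permuted within line or isoform, it was 0.0556. Depth is unknown, so calls that miss the authors' threshold cannot be told from absent binding. Of 432 recomputed differences in peak number, 136 belonged to comparisons whose difference was 0. Of the other 296, 249 kept their direction, 39 went to 0 and 8 reversed. At equal list length, CTSE in Panc10.05 minus BxPC3 went from 0.75 to −0.25, VSIG1 in sgP2 minus sgNC from −0.5 to 0.5, and the MUC6 and MUC5AC neighbourhood in P1-α2 minus P2-α8 over both lines from −0.25 to 0.25. With only peaks of −log10 q 20 or more, CLDN18 over both lines went from 0.25 to −0.25. Leaving out 1 replicate gave −0.5 to 1.5 for CTSE between the Panc10.05 isoforms, −1.5 to 0.5 for VSIG1 in sgP2, and −1 to 0.667 for the mucins over both lines (0.0833 without BxPC3 P1-α2 replicate 1 and 0.667 without Panc10.05 P2-α8 replicate 1). The cause of these reversals was not tested.

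Of 160 recomputed counts of group-specific regions, 34 moved by over 1.5 times. At equal list length, the P1-α2 count fell to 0 in BxPC3 and over both lines, sgP2 with the P1 antibody fell to 0, the pan-antibody count in sgP2 fell to 0, and Panc10.05 against BxPC3 rose from 0 to 1. With only peaks of −log10 q 20 or more the BxPC3 P1-α2 count was 1, and those of sgNC against sgP1 and of the pan antibody were 0. Within 10 kb, sgNC against sgP1 gave 1 and sgP2 with the P1 antibody 0. Reciprocal overlap of 50%, averaged over replicates, gave 1.5 for sgNC against sgP2 and 1.25 for Panc10.05 against BxPC3, both from 0. Leaving out 1 replicate gave 0 to 4 for Panc10.05 P2-α8, 4 to 9 for BxPC3 P1-α2, 1 to 2 for P1-α2 over both lines, 0 to 1 for Panc10.05 against BxPC3, 0 to 1 for sgP1 against sgNC and against sgP2, 0 to 3 for sgP2 against sgP1, 3 to 7 for sgNC against sgP1, 0 to 3 for sgNC against sgP2, 1 to 2 for sgP2 with the P1 antibody, and 0 to 1 for the P1 antibody and 1 to 4 for the pan antibody in sgP2.

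Of 45 recomputed counts of members with a peak in both libraries, 9 moved. Within 10 kb, BxPC3 P1-α2 gave 2, sgNC 2 and sgP2 with the P1 antibody 0. With only peaks of −log10 q 20 or more, sgNC and sgP2 gave 1 each. Leaving out 1 replicate, which asks for a peak in 1 list only, gave 1 to 2 for BxPC3 P2-α8 (2 without replicate 1), 2 to 3 for sgP1 (3 without replicate 2) and 1 to 2 for sgP2 with the P1 antibody (2 without replicate 2). With replicate numbers as a block, the differences were the same by construction (1 peak for ANXA10 between the Panc10.05 isoforms, exact p = 0.5) and no call changed.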
